A study of Homo sapiens with 6 samples.

Results

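The BCL2 family genes measured here were the 10 genes of the deposited FPKM table whose Ensembl IDs carry the symbols BCL2, BCL2L1, BCL2L2, MCL1, BAX, BAK1, BCL2L11, BID, BIK and PMAIP1, out of 62710 genes listed. They were picked by gene name and by no threshold on a measured value, although earlier results of these data were known. RNA came from HT1080, an established human fibrosarcoma cell line, grown in high-glucose DMEM with serum and either left untreated (3 libraries) or exposed to 20 ng/mL human IFNβ for 24 h (3 libraries). The labels name human IFNβ, whereas the written methods of the sequencing name mouse IFNβ for both cell lines of the study. The comparison asks how this interferon changed the RNA of the family in the tumor cells. FPKM is the number of sequenced fragments of a gene, scaled by the length of the gene and by the fragments of the library.

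BCL2 family proteins decide whether the outer membrane of mitochondria is opened during intrinsic apoptosis. The effectors BAX and BAK1 form the pores through which cytochrome c leaves, and the anti-apoptotic members BCL2, BCL2L1 (BCL-XL), BCL2L2 (BCL-W) and MCL1 hold them in check. The BH3-only members respond to stress. BCL2L11 (BIM) binds all of these anti-apoptotic proteins, PMAIP1 (NOXA) prefers MCL1, BID links death receptors to mitochondria after cleavage by caspase-8, and BIK acts at the endoplasmic reticulum. Type I interferons act through a transcription factor complex that includes IRF9 and binds the interferon-stimulated response element (ISRE) in the promoters of their targets.

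The promoter windows of the 3 members with the largest rises are printed here. That of IFIT1, a classical interferon-stimulated gene, is beside them as an example of a window with this element. Each window runs 5′ to 3′ from 250 bases before to 50 bases after a transcription start in RefSeq (GRCh38.p14). Capitals mark GC boxes (GGGCGG on either strand) in the members and the ISRE (GAAA, any 2 bases and GAAA, on either strand) in IFIT1.
BCL2L11 (chr2:111120664-111120963, plus strand): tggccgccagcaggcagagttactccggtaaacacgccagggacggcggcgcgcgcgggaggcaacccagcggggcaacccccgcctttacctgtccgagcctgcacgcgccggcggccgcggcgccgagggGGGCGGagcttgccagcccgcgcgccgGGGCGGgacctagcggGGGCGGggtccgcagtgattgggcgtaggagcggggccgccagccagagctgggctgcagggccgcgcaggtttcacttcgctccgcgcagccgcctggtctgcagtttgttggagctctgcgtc
PMAIP1 (chr18:59899746-59900045, plus strand): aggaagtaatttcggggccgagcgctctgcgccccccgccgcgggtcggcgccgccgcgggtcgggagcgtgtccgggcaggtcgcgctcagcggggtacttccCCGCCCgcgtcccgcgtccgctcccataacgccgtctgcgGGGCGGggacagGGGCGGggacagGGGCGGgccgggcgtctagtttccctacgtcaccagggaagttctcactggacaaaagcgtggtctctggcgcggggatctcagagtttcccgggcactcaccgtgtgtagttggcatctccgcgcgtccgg
BAK1 (chr6:33580227-33580526, minus strand): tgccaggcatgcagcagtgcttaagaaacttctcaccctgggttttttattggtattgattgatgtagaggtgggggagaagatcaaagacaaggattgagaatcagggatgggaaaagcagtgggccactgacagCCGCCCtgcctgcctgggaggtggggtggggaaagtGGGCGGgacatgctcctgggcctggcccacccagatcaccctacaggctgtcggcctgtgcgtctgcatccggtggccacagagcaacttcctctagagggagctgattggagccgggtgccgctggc
IFIT1 (chr10:89392373-89392672, plus strand): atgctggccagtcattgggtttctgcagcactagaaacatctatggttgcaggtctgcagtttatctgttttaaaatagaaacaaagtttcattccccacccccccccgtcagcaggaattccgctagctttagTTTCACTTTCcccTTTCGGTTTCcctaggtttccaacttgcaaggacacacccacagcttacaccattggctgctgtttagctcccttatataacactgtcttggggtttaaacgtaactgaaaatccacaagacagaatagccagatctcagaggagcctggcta
The window of BCL2L11 holds 3 GC boxes, that of PMAIP1 holds 4 and that of BAK1 holds 2, whereas that of IFIT1 holds none and has 2 ISRE matches. RefSeq windows were found for 7 of the 10 members, 12 windows in all, as some genes have several starts. None of the 12 held the ISRE, which 3.57% of all 35116 windows hold, or the STAT element GAS (TTCNNNGAA), which 7.66% hold. With shares this low, few matches can be looked for in 12 windows, so their absence does not set the members apart. GC boxes were present in 9 of the 12 windows, against 44.95% of all windows. Several of the 12 belong to BID and partly overlap, so the same box can count more than once. By gene, 6 of the 7 members had a GC box in a window. The bases G and C made up 48.7% to 78.0% of the 12 windows and 46.0% of that of IFIT1, against a median of 58.7% over all windows. Whether the GC boxes only follow this content was not tested. These matches describe the letters of a short stretch and say nothing on binding elsewhere in the genes. MCL1, BCL2L2 and BIK were not matched.

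The libraries had been divided by 22848104 to 32915500 fragments. The interferon response was present in the libraries labelled as treated, since ISG15, IFIT1, MX1, OAS1 and IRF1 rose and were higher in each treated library. The cells carried mesenchymal RNA, VIM at 320 to 426 FPKM among it. The 7 mesenchymal markers summed to 1336 to 1351 FPKM in untreated and 1304 to 1349 FPKM in treated libraries. Their lowest single value was 0.0967 FPKM, and NT5E changed most of the 7, by a log2 fold change of 2.15 after IFNβ. Of 6 epithelial markers, 5 were at most 0.0598 FPKM, with CDH1 and EPCAM among them. The summed epithelial markers were at 0.243 to 0.464 FPKM in untreated and 0.585 to 0.661 FPKM in treated libraries, and the 4 endothelial markers at 0.268 to 0.421 and 0.471 to 0.530 FPKM. Of 6 leukocyte markers, PTPRC was at most 0.013 FPKM and LCP1, which made up nearly all of their sum, was at 128 to 139 FPKM before and 111 to 113 FPKM after IFNβ. The part of these shifts in the results was not tested. In bulk RNA, a change in every cell and a change in a share of the cells cannot be told apart. Gene-level FPKM do not separate splice forms, among them the long and short forms of BCL2L1 and MCL1, which have opposed functions.

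Of the 10 members, 8 changed after IFNβ, 4 of them upward and 4 downward (limma on log2(FPKM + 0.1), adjusted p under 0.05 over 20716 genes tested). BCL2L11, PMAIP1, BAK1 and BCL2L1 rose, whereas BID, BCL2, BAX and MCL1 fell. Among all genes tested 32.7% passed, 15.2% upward and 17.5% downward. Most members are well expressed, and where the mean was 1 FPKM or more 53.8% passed, against 8 of the 9 members left. The treated and untreated libraries did not overlap in the same 8 members, which 46.6% of all genes tested also showed. The median log2 fold change of the members was -0.10, against 0.00017 over all genes tested. None of the 10 was a differentially expressed gene (DEG) by the further criterion of a log2 fold change of 1 or more in size, which 4.22% of genes met with limma. At an unadjusted p under 0.05 there were 8 members, and limma-voom on recovered fragments called 1 DEG, BCL2L11. Taken alone, each of the 8 had an exact two-sided permutation p of 0.10, the smallest that 3 libraries against 3 can give.

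**Figure D1:**
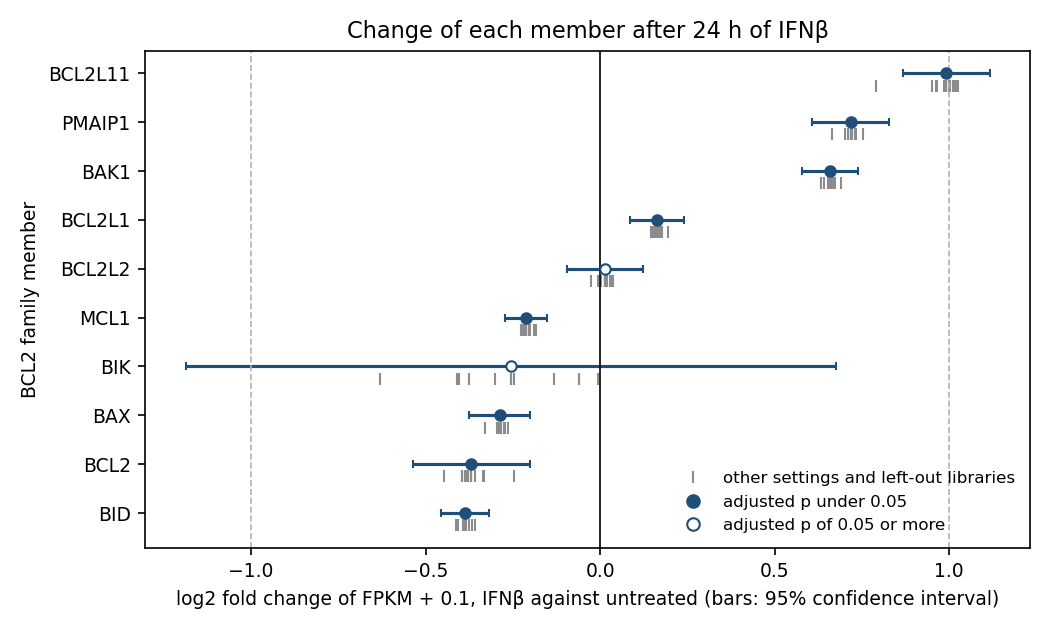
Log2 fold change of FPKM + 0.1 (x axis) of each member (y axis), IFNβ against untreated, with the 95% confidence interval from limma. Grey ticks are the fold changes under other settings and with single libraries left out, and dashed lines mark -1 and 1. BCL2L11 sits at 0.99, next to the dashed line, and the interval of BIK runs from -1.19 to 0.67.

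BCL2L11 had the largest change. This gene (ENSG00000153094, GRCh38 chromosome 2 from 111119378 to 111168447) was at 2.41, 2.55 and 2.33 FPKM in untreated replicates 1, 2 and 3 and at 4.80, 4.88 and 5.12 FPKM after IFNβ. The lowest treated library was far above the highest untreated one. The mean rose from a mean of 2.43 ± 0.111 to 4.93 ± 0.165 FPKM (S.D., n = 3 each), 2.03 times (log2 fold change 0.99, standard error 0.05, limma adjusted p = 3.7e-05). It thus missed the fold criterion on the scale with a pseudocount, and met it in 5 of 15 other settings, 2 of which left out a library (untreated replicate 2 or IFNβ replicate 1). The exons of MIR4435-2HG, a long noncoding RNA on the other strand, cover 10.9% of the exon length of BCL2L11. MIR4435-2HG was at 1.87, 1.74 and 1.86 FPKM in untreated cells and at 1.60, 1.67 and 1.58 FPKM after IFNβ. Only 5.55% of its own exon length is shared, so these values say little on the shared stretch. Whether the overlap enters the level of BCL2L11 was not tested.

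PMAIP1 (ENSG00000141682), on chromosome 18 from 59899948 to 59904306, was the most abundant BH3-only member. It was at 28.5, 32.2 and 31.3 FPKM in untreated cells and at 50.0, 50.3 and 50.8 FPKM after IFNβ. The treated libraries lay within 1 FPKM of each other and above each untreated library. The mean rose 1.64 times, from 30.7 ± 1.96 to 50.4 ± 0.382 FPKM (S.D., n = 3 each; log2 fold change 0.72, standard error 0.05, limma adjusted p = 8.7e-05).

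BID (ENSG00000015475), on chromosome 22 from 17734138 to 17774770, moved the other way. Its level was 12.1, 12.1 and 12.2 FPKM in untreated cells, the tightest of the untreated groups, and 9.51, 8.98 and 9.25 FPKM after IFNβ. This fall to 0.762 of the untreated mean was -0.39 on the log2 scale (standard error 0.03, limma adjusted p = 1.6e-04). BIK (ENSG00000100290), on chromosome 22 from 43110748 to 43129712, was close to undetected. With 6, 12 and 7 fragments in untreated and 4, 11 and 5 in treated libraries, its FPKM ran from 0.224 to 0.425 and from 0.137 to 0.463. The groups overlapped, and a change of FPKM + 0.1 from 0.439 to 1.60 times is within the 95% interval (limma adjusted p = 0.67). Changes within this interval are thus not excluded by these libraries. With a pseudocount of 0.01 the interval of BIK was wider, -1.61 to 0.86 on the log2 scale.

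The effectors BAX and BAK1 changed in opposite directions. BAK1 (ENSG00000030110), on chromosome 6 from 33572547 to 33580293, was at 17.4, 18.1 and 17.9 FPKM in untreated and at 28.3, 29.2 and 27.0 FPKM in treated libraries. Its mean rose 1.58 times (log2 fold change 0.66, standard error 0.03, limma adjusted p = 3.5e-05). BAX (ENSG00000087088), on chromosome 19 from 48954815 to 48961798, was at 51.8, 56.1 and 56.8 FPKM in untreated and at 44.8, 44.9 and 45.1 FPKM in treated libraries. Each treated library was under the lowest untreated one. BAX fell to 0.818 of its untreated mean (log2 fold change -0.29, standard error 0.04, limma adjusted p = 0.0015). The rise and the fall left the summed FPKM of both effectors at 72.7 ± 3.08 before and 73.1 ± 0.983 after IFNβ (S.D., n = 3 each), with overlapping groups.

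Among the anti-apoptotic members, MCL1 and BCL2 fell, BCL2L1 rose and BCL2L2 did not pass. MCL1 (ENSG00000143384, chromosome 1 from 150574551 to 150579738), whose protein is short-lived, was the most abundant member in every library. It was at 95.2, 100.0 and 95.2 FPKM in untreated cells and at 83.7, 84.4 and 82.3 FPKM after IFNβ. This fall to 0.862 of the untreated mean was small but larger than the spread of either group (log2 fold change -0.21, standard error 0.02, limma adjusted p = 0.0011). BCL2 (ENSG00000171791), the founding member, on chromosome 18 from 63123346 to 63320128, was the least abundant of the 4. Its level was 1.96, 1.91 and 2.10 FPKM in untreated and 1.55, 1.56 and 1.44 FPKM in treated libraries. BCL2 fell to 0.763 of its untreated mean (log2 fold change -0.37, standard error 0.07, limma adjusted p = 0.0078).

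BCL2L1 (ENSG00000171552), on chromosome 20 from 31664452 to 31723989, was the anti-apoptotic member that rose. It was at 21.1, 21.7 and 21.7 FPKM in untreated and at 23.1, 24.6 and 24.6 FPKM in treated libraries. The groups did not overlap, but the gap between them was smaller than the range of the treated libraries. Its mean was 1.12 times higher, the smallest change among the 8 (log2 fold change 0.16, standard error 0.03, limma adjusted p = 0.0090). Exons of ABALON on the other strand cover 43.0% of the exon length of BCL2L1, and 74.8% of the exon length of ABALON lies in this overlap. ABALON was at most 0.0177 FPKM. As the counting of fragments in shared exons is not given, this value does not show how far the overlap enters the level of BCL2L1. BCL2L2 (ENSG00000129473), on chromosome 14 from 23298790 to 23311759, was at 7.51, 7.51 and 6.89 FPKM in untreated and at 7.17, 7.59 and 7.36 FPKM in treated libraries. These values interleave, and the 95% interval of the change runs from 0.937 to 1.09 times (limma adjusted p = 0.84). BCL2L2-PABPN1, a read-through gene on the same strand, covers 19.4% of the exons of BCL2L2 and was at 0.131 to 0.572 FPKM, and how fragments were split between them is not given in the sources used here.

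**Figure D2:**
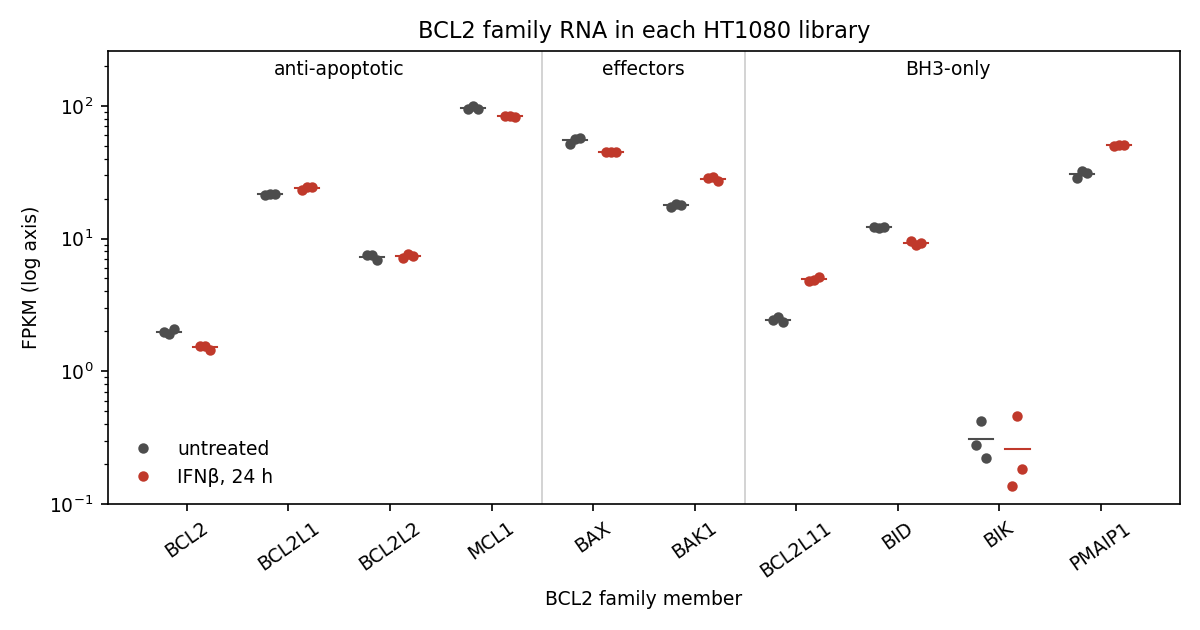
FPKM on a log axis (y) of the 10 members (x) in each library, with 3 untreated and 3 IFNβ-treated libraries a gene and a line at each mean. Levels span from MCL1, at 82.3 to 100.0 FPKM, to BIK, at 0.137 to 0.463 FPKM, and the groups overlap for BCL2L2 and BIK.

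FPKM is a level per length, so the members can also be ranked within a group. In untreated cells the order was MCL1, BAX, PMAIP1, BCL2L1, BAK1, BID, BCL2L2, BCL2L11, BCL2 and BIK, and no neighbours overlapped in their 3 libraries. After IFNβ the order differed at 2 places, again with no overlap between neighbours. PMAIP1 passed BAX, and BAK1 passed BCL2L1 to take the next place after BAX. The exchange of BAK1 and BCL2L1 depends on the gene lengths that the authors used. The deposited values imply a length of 4197 bp for BCL2L1, against 3314 bp of exons in GENCODE release 29, and with the latter BCL2L1 stayed above BAK1 (30.5 against 28.2 FPKM after IFNβ). The exchange of PMAIP1 and BAX was found with either length. The implied length of MCL1 was 6222 bp against 4371 bp, so its lead over the others is larger with the release 29 length.

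Ratios within a library do not depend on how libraries are scaled to each other. The ratio of BAK1 to BAX was 0.336, 0.322 and 0.315 in untreated libraries and 0.633, 0.649 and 0.599 after IFNβ, 1.93 times higher. The ratio of BCL2L11 to BCL2, a BH3-only protein and a partner it binds, was 1.23, 1.34 and 1.11 before and 3.09, 3.14 and 3.54 after IFNβ. For PMAIP1 and its main partner MCL1 the ratio went from 0.317 ± 0.0156 to 0.604 ± 0.0116 (S.D., n = 3 each). BCL2L1 relative to MCL1 went from 0.222 ± 0.00555 to 0.289 ± 0.0121 (S.D., n = 3 each). In each of these 4 ratios the treated libraries were above the untreated ones. The pairs were picked with the values known, so no test is given.

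**Figure D3:**
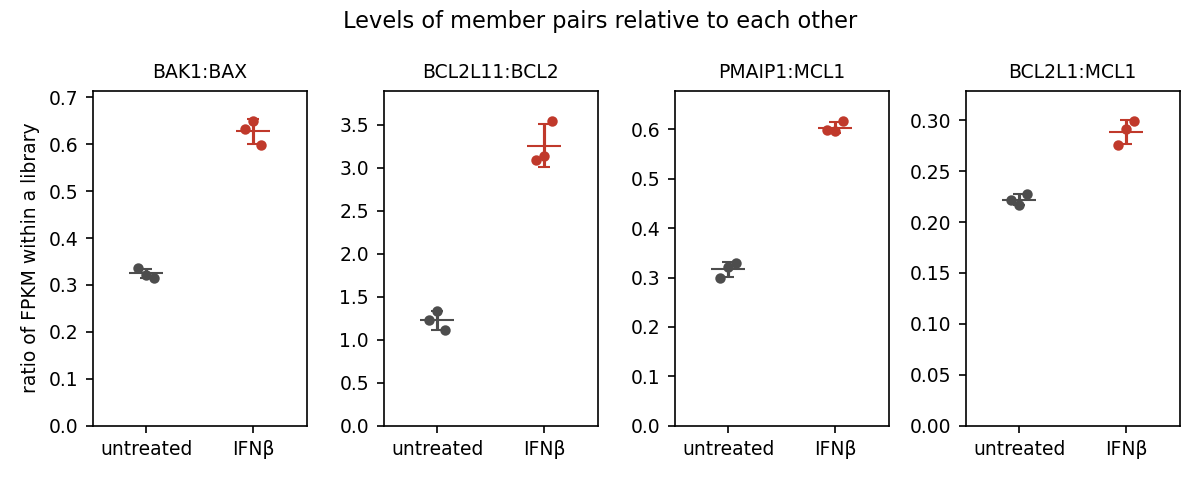
Ratio of the FPKM of a pair of members within a library (y axis, from 0) in untreated and IFNβ-treated cells, 1 panel a pair. Points are the 3 libraries of a group, the horizontal line is the mean and the bars are the S.D. The BAK1:BAX panel goes from a mean of 0.324 to 0.627.

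Summed over their roles, the anti-apoptotic members went from 127.6 ± 3.06 to 116.4 ± 1.48 FPKM and the BH3-only members from 45.5 ± 2.04 to 64.8 ± 0.455 FPKM (S.D., n = 3 each). PMAIP1 makes up most of the latter sum and MCL1 most of the former. The share of BH3-only members in the summed FPKM of the family was 18.2% to 18.7% in untreated and 25.2% to 25.8% in treated libraries. These sums are of RNA, and describe no protein balance.

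Of 14 further BCL2 family genes, 10 were expressed enough to be tested, and 4 of these passed. The share was 32.7% over all genes tested and 53.8% over those averaging 1 FPKM or more, as most of the 10 did. BMF, a BH3-only member, rose from a mean of 0.159 ± 0.0456 to 0.747 ± 0.0836 FPKM (S.D., n = 3 each; log2 fold change 1.72, standard error 0.20, limma adjusted p = 9.8e-04). BCL2L13, a mitophagy receptor of the outer membrane, rose from a mean of 10.4 ± 0.317 to 18.8 ± 0.0559 FPKM (S.D., n = 3 each). The anti-apoptotic BCL2A1 fell from a mean of 7.03 ± 0.631 to 2.56 ± 0.131 FPKM (S.D., n = 3 each; log2 fold change -1.42, standard error 0.07, limma adjusted p = 3.9e-05). BAD, a BH3-only member controlled by phosphorylation, fell from a mean of 8.26 ± 1.03 to 6.17 ± 0.539 FPKM (S.D., n = 3 each, limma adjusted p = 0.025). Without untreated replicate 1, IFNβ replicate 2 or IFNβ replicate 3 in turn, BAD had adjusted p-values of 0.058, 0.052 and 0.070. BMF and BCL2A1 were DEGs in this fit, whereas no member of the 10 was, BCL2L11 coming closest at 0.99. BMF had 18, 34 and 22 fragments in untreated libraries, and it was not tested where a mean of 1 FPKM was required. The 4 untested genes (BCL2L10, HRK, BCL2L14 and BCL2L15) were at most 0.0514 FPKM.

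The genes around the family were read in the same way, without a test of the lists. Of 13 death receptor and initiator genes, 10 were tested, 7 rose and 2 fell, with a median log2 fold change of 0.50. Over all genes tested 15.2% rose and 17.5% fell, and among those averaging 1 FPKM or more 53.8% passed in either direction. TNFSF10, which encodes the death ligand TRAIL, had 2, 2 and 0 fragments in untreated libraries and reached 12.6 ± 0.209 FPKM (S.D., n = 3), at least 331-fold higher, with 3 fragments taken as the floor of an untreated library. CASP8, which cleaves BID, rose from a mean of 4.62 ± 0.263 to 7.54 ± 0.189 FPKM (S.D., n = 3 each) while BID fell. CASP10 (log2 fold change 1.25) and CFLAR (0.78), an inhibitor of caspase-8, also rose.

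Downstream of the pore, 5 of 15 apoptosome, caspase and inhibitor genes rose and 4 fell, with a median of 0.062. Thus 9 of 15 passed, against 32.7% of all genes tested and 53.8% of those averaging 1 FPKM or more. The list also holds genes that average less than 1 FPKM. The inhibitor of apoptosis BIRC3 rose by a log2 fold change of 0.996. DFFA and DFFB, the inhibitor and the nuclease subunit of the factor that cuts DNA in dying cells, fell by 0.54 and 0.32 on the log2 scale. DFFB no longer passed in limma without untreated replicate 3 (adjusted p = 0.067), IFNβ replicate 1 (0.067) or IFNβ replicate 2 (0.0501). Without untreated replicate 3, 2 genes of this list were lower. Of 13 mitochondrial and turnover partners, 2 rose and 5 fell, with a median of -0.062, so that the share that passed was near that 53.8%. MTCH2, the receptor of BID on mitochondria, fell by 0.30 on the log2 scale, VDAC1 by 0.27 and TPT1 by 0.42, whereas the ubiquitin ligase MARCHF5 rose by 0.35.

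Of 14 regulators of BCL2 family transcription, 13 were tested, 5 rose and 4 fell, with a median of -0.045, against 32.7% of all genes tested, or 53.8% of those averaging 1 FPKM or more, that passed in either direction. DDIT3 (CHOP), an activator of BCL2L11, rose from a mean of 4.12 ± 0.347 to 6.73 ± 0.694 FPKM, and STAT3 from 11.9 ± 0.575 to 19.2 ± 0.713 FPKM (S.D., n = 3 each). E2F1 fell by 0.45 on the log2 scale.

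**Figure D4:**
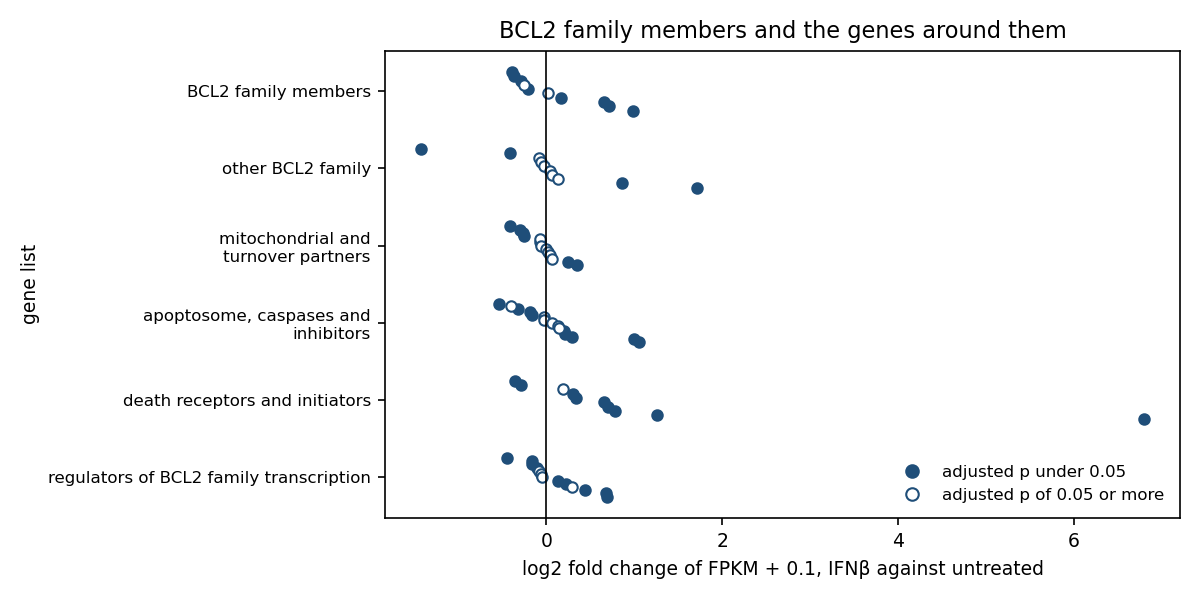
Log2 fold change of FPKM + 0.1 (x axis), IFNβ against untreated, of each tested gene in 6 gene lists (y axis), filled where the adjusted p is under 0.05. Members of the BCL2 family lie between -0.39 and 0.99, and TNFSF10 stands at 6.80.

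The genes most like BCL2L11 over the 6 libraries, by Pearson's r of log2(FPKM + 0.1) among 11995 genes averaging 1 FPKM or more, were JUND, SLC38A2 and BTN3A3, each with r of at least 0.999. Their log2 fold changes were 0.61, 0.34 and 1.74. With 2 groups of 3 libraries such values say mainly that a gene was higher after IFNβ with little spread, and 491 genes had r of at least 0.99.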

How the data were processed

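RNA sequencing of HT1080 cells gave 3 untreated and 3 IFNβ-treated libraries, grouped by their titles. According to the submitters' processing notes, fastp, HISAT2, StringTie and GRCh38 were used. Versions, annotation, gene lengths and strand setting are not given in the sources used here. The deposited values are FPKM per Ensembl gene and library, made by the authors without pooling. FPKM were whole multiples of a single fragment (within 0.01 fragment) for 100% of the 35303 genes above 0, which gave the fragments of each gene and the 22848104 to 32915500 fragments each library was divided by. Pairs of libraries within a group differed by more than counting error (chi-square per degree of freedom of 1.78 to 3.38). The study's methods describe its cell culture experiments in general as biological replicates, and the labels do not say for these libraries whether they came from separate cultures, so p-values measure the spread between these samples.

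Symbols came from a table of gene names and locations from GENCODE release 29 (GRCh38), which lacks 4436 of the authors' IDs. limma (version 3.58.1, R 4.3.3) with an intensity trend compared log2(FPKM + 0.1) where the mean over the libraries was 0.1 FPKM or more, with Benjamini-Hochberg adjustment over all of them. As the deposited unit is FPKM, a test on the log scale took the place of the count test named in the study's methods, and the recovered fragments were tested only as an alternative. A fold change on this scale understates that of low genes. The procedure was tested on simulated data. Members, lists and ratios were chosen with earlier results of these data known. Of each list the 4 largest changes that passed are named, except for genes that are not reported here. Alternatives were other pseudocounts, filters and scalings, no trend, leaving out each library, a block on replicate number, limma-voom on recovered fragments and, added after the values were seen, other gene lengths.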

Additional observations from a re-analysis of the deposited data

How the results depend on the processing

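Under 15 other settings (6 of them leaving out a library), the 8 members that passed kept their direction and an adjusted p-value under 0.05, so that 4 were higher and 4 lower in each. BCL2L2 did not pass in any and turned to a log2 fold change of -0.026 without untreated replicate 3 and of -0.0056 without IFNβ replicate 2 (-0.026 to 0.036 with single libraries left out), and BIK, not tested with a mean FPKM of at least 1, did not pass in the other 14. The number of members called DEGs, 0 in the fit reported, was 1 (BCL2L11) with a pseudocount of 0.01, with median ratio scaling and with limma-voom on recovered fragments, and 0 to 1 with single libraries left out. BCL2L11 had a log2 fold change of 0.79 with a pseudocount of 1 and at most 1.02 elsewhere. The number of DEGs over all genes, 875, was 304 with a pseudocount of 1 and 425 where only means of 1 FPKM or more entered, where fewer genes were tested.

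Same-numbered libraries deviated from their group means with correlations of 0.053, -0.018 and 0.12. Between different numbers the correlations were -0.15 to 0.099. No pairing by number was seen, although 3 libraries a group are too few to exclude it. With the replicate number as a block, 6069 genes passed in place of 6778, 829 were DEGs in place of 875, and the same 8 members passed. By depth, the members other than BIK had at least 367 fragments in every library, whereas BIK had at most 12. With the exon lengths of release 29, the ratio of PMAIP1 to MCL1 was 0.218 and 0.415 in place of 0.317 and 0.604, and BCL2L1 to MCL1 0.198 and 0.257 in place of 0.222 and 0.289.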
